A study of Mus musculus with 51 samples.

Results

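The genes described here are 10 components of Toll-like receptor signaling, taken by symbol from the 24421 genes counted in the study and accounting for every symbol on the list. They are the receptors Tlr2, Tlr3, Tlr4, Tlr7 and Tlr9, the ligand-handling and accessory proteins Cd14, Ly96 and Tril, and the adaptors Myd88 and Ticam1. RNA came from the prefrontal cortex (PFC) of 17 adult male C57BL/6J mice, which were 8 weeks old when purchased, and was sequenced from 3 preparations of each mouse. Cells held on magnetic beads against the astrocyte surface antigen ACSA2 are called astrocytes, cells held on Cd11b beads from what the first beads had left behind are called microglia, and a small share of the minced tissue, set aside before dissociation and myelin removal, is called total homogenate. The 9 chronic intermittent ethanol (CIE) mice breathed ethanol vapor at 15 to 20 mg/L of air for 16 h per day in 4 weekly cycles with undisturbed weeks between them, and received ethanol at 1.6 g/kg before entering the chamber. The 8 control mice breathed air in the same kind of chamber and received saline. Both groups received the alcohol dehydrogenase inhibitor pyrazole at 1 mmol/kg, so pyrazole is shared by every sample. No females, and no mice without pyrazole, were among the samples analysed here.

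Toll-like receptors are pattern-recognition proteins of innate immunity. Tlr2 and Tlr4 sit at the cell surface and recognize bacterial lipoproteins and lipopolysaccharide, whereas Tlr3, Tlr7 and Tlr9 recognize nucleic acids inside endosomes. All of these receptors except Tlr3 signal through the adaptor MYD88, Tlr3 signals through TICAM1 (TRIF), and Tlr4 uses both, with NF-kappa B and interferon regulatory factors as the end points. In brain these receptors are best known from microglia, and they are often studied in the neuroimmune response to ethanol.

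Counts assigned to genes ranged from 571878 to 15594154 per library, and were lowest in microglia, with a median of 1879481.5 in control and 2677866 in CIE mice. In control mice the summed level of 12 microglia markers was 27177 to 40837 CPM (counts scaled to a common library size) in microglia against 1502 to 6250 in astrocytes. The summed level of 12 astrocyte markers was 11586 to 20290 CPM in astrocytes against 352 to 917 in microglia. The astrocyte libraries also held 9 markers of the oligodendrocyte lineage at a summed 15702 to 22166 CPM, against 1115 to 3719 in total homogenate. Against total homogenate, the median summed level in astrocytes was 17053 against 7494 CPM for astrocyte markers, 19157 against 2280 for the oligodendrocyte lineage and 3723 against 816 for microglia markers. The astrocyte preparation thus held more of its named cell type than the homogenate did, but the ratio was larger for the markers of the other glia. Fewer cells of a type and less RNA per cell cannot be told apart in such bulk libraries.

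The 10 genes fell into 2 patterns in control mice. Of these, 8 were highest in microglia, and Tril and Tlr3 were highest in astrocytes. To compare genes with each other, CPM values scaled over all 51 libraries were divided by exon length in kilobases. On this scale the first in microglia was Cd14, the surface co-receptor that hands lipopolysaccharide on, at 153.6 ± 20.3 CPM per kb (SD, n = 8). Tlr2, the receptor for lipoproteins, followed at 115.1 ± 34.7, the single-stranded RNA receptor Tlr7 at 89.9 ± 22.5, the CpG DNA receptor Tlr9 at 59.2 ± 12.8 and the adaptor Myd88 at 58.8 ± 6.70 CPM per kb. The mean ± SD ranges of neighbors among these 5 overlapped. So did those of Tlr3 at 16.3 ± 3.31 and the lipopolysaccharide receptor Tlr4 at 15.0 ± 4.07 CPM per kb. Such overlap describes the spread between mice, and differences between genes within the same mouse were not tested. Ticam1, at 25.4 ± 4.82 CPM per kb, lay below Myd88 and above Tlr3 with no overlap on either side. Ly96 (MD-2), the small secreted protein that binds lipopolysaccharide on Tlr4, had 6.67 ± 2.76, and Tril had the lowest level in microglia, 3.31 ± 1.65 CPM per kb.

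In astrocytes the order was headed by Tril, a leucine-rich repeat membrane protein that works as an accessory to Tlr4 and Tlr3 signaling. It reached 115.4 ± 14.9 CPM per kb (SD, n = 8), and the next gene, the double-stranded RNA receptor Tlr3, was at 23.2 ± 3.76 with no overlap. Cd14 (20.0 ± 8.51), Tlr2 (15.6 ± 7.71), Tlr7 (11.97 ± 5.06), Myd88 (11.4 ± 2.79), Tlr9 (7.18 ± 3.67) and Ticam1 (7.12 ± 0.990 CPM per kb) followed, each overlapping the next in mean ± SD. Tlr4 (2.57 ± 0.759) and Ly96 (1.495 ± 0.657 CPM per kb) were last. Tril and Tlr3 were also the first genes in total homogenate, at 18.1 ± 2.95 and 3.52 ± 0.898 CPM per kb, and Ly96 and Tlr4 the last, at 0.594 ± 0.265 and 0.4929 ± 0.153.

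**Figure D1:**
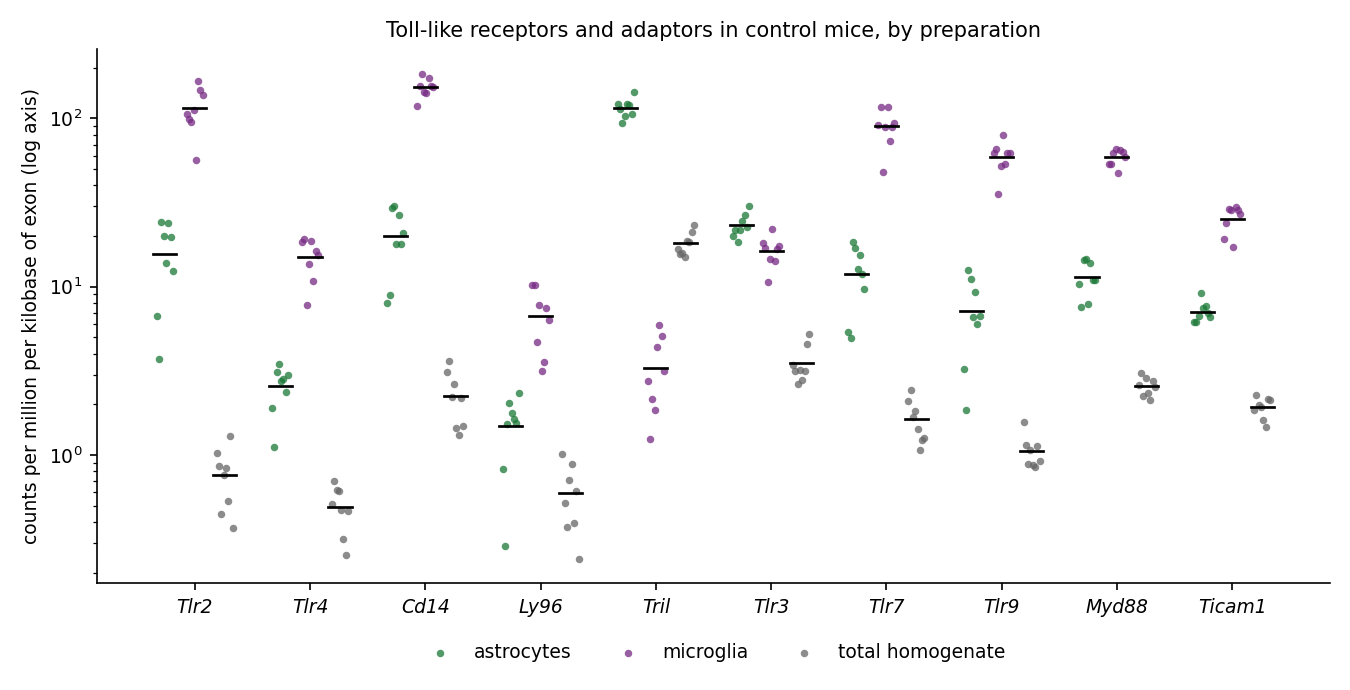
Level of each gene in the 8 control mice in CPM per kilobase of exon on a log axis, with astrocytes in green, microglia in purple and total homogenate in gray. Points are mice and black bars are means. Tril is the gene with its highest points in astrocytes (mean 115.4) and its lowest in microglia (mean 3.31), and 8 genes are highest in microglia.

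The enrichment was tested gene by gene in the control mice with edgeR. All 10 genes were higher in astrocytes than in total homogenate, where 41% of the 13672 genes tested were higher, with log2 differences from 1.52 (Ly96, standard error 0.319) to 4.46 (Tlr2, standard error 0.331). Against total homogenate 9 of the 10 genes were higher in microglia (39.8% of all genes tested), from 2.28 (Tlr3, standard error 0.142) to 7.30 (Tlr2, standard error 0.350). Tril was lower in microglia than in total homogenate by a log2 difference of -2.35 (standard error 0.188, adjusted p = 2.01e-12), as were 44.6% of all genes. These differences are relative to all gene counts of each preparation, which differ in their mixture of cells.

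The direct comparison of microglia with astrocytes separated the genes most clearly. In microglia 8 genes were higher (35.3% of all genes tested), from 1.81 for Ticam1 (standard error 0.119) to 2.95 for Tlr9 (standard error 0.234) on the log2 scale. Tlr3 was lower in microglia by -0.54 (standard error 0.134, adjusted p = 0.000652) and Tril by -5.11 (standard error 0.200, adjusted p = 1.31e-18), against 36.6% of all genes that were lower. Tril had 504, 625 and 766 CPM (lowest, median and highest control mouse) in astrocytes. In microglia these were 6.68, 15.7 and 31.7 CPM, and in homogenate 80.3, 94.6 and 126. No 2 preparations overlapped. Tlr3 had 96.6, 116 and 157 CPM in astrocytes and 55.5, 87.6 and 114 in microglia, so single mice overlapped between these preparations, while in total homogenate it had 13.8, 16.6 and 27.1 CPM. Within the same mouse, the astrocyte level of Tlr3 was 110% to 188% of the microglia level.

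How much of each gene the astrocyte libraries held was set beside the microglia markers in the same libraries. The astrocyte level of a microglia marker was 10.8% to 20.9% of the microglia level of the same control mouse (median over 12 markers 11.8%). Tlr9 (10.3%) lay just below the range of those markers, and Tlr7 (12.1%), Cd14 (13.2%), Tlr2 (13.9%), Tlr4 (16.98%) and Myd88 (19.04%) lay within it. Ticam1 (25.7%) and Ly96 (29.3%) lay above the highest marker, Sall1, but the mouse-to-mouse range of Ly96, 2.83% to 56.3% from 1 to 17 counts per astrocyte library, covered all of them. Tlr3 was at 143% and Tril at 4427%. The level of Tril in microglia was 2.26% of that in astrocytes, inside the range of the 12 astrocyte markers (0.976% to 9.92%, median 2.19%) and below that of the oligodendrocyte lineage markers (20.4% to 45.7%). The part that RNA of other cells had in the levels of the sorted preparations was not tested.

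**Figure D2:**
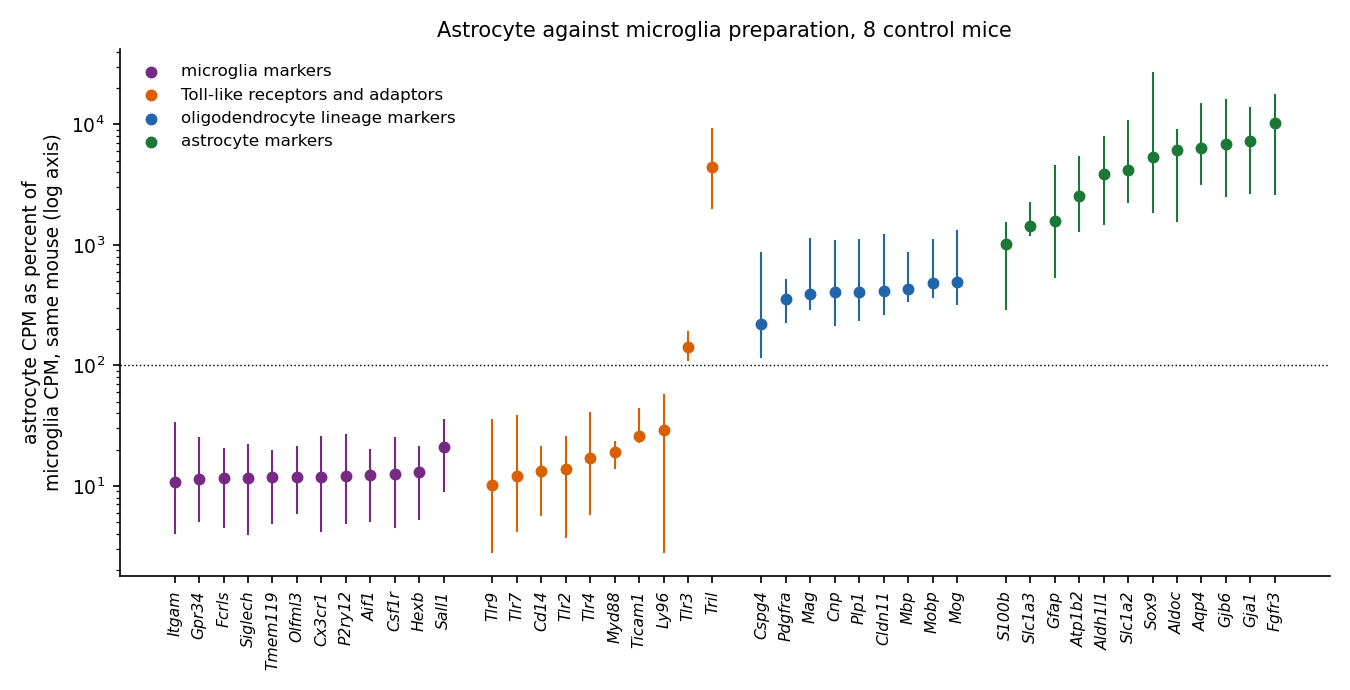
Level in astrocytes as percent of the level in microglia of the same control mouse, on a log axis, for the 10 genes (orange) and for markers of microglia (purple), the oligodendrocyte lineage (blue) and astrocytes (green). Points are medians over 8 mice and lines run from the lowest to the highest mouse. Tlr7, Cd14, Tlr2, Tlr4 and Myd88 lie within the range of the microglia markers, and Tril, at 4427%, lies among the astrocyte markers.

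The Toll-like receptors outside the 10 that could be tested were each higher in microglia than in astrocytes, as were 8 of the 10 and 35.3% of all genes. Of 7 other Toll-like receptors 5 passed the low-count filter (Tlr1, Tlr5, Tlr6, Tlr12 and Tlr13), with log2 differences of 2.25 (Tlr6) to 2.88 (Tlr13). Tlr13, a mouse receptor for bacterial ribosomal RNA, had 197 ± 45.1 CPM (SD, n = 8) in control microglia and Tlr1, a partner of Tlr2, 36.9 ± 8.01. Tlr8 did not pass the filter, with 48 counts over the 8 control microglia libraries, and Tlr11 had 6. Of the other adaptors, Tirap, which bridges surface receptors to MYD88, differed by 0.78 (standard error 0.136) and Ticam2, which bridges Tlr4 to TICAM1, by 2.99 (standard error 0.242). Sarm1, which is known mainly for its role in axons, was the adaptor with the opposite order, at 45.3 ± 4.32 CPM in total homogenate and 4.49 in microglia (2.10 to 7.27 over 8 mice).

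Below, 4 of the genes are shown with the 250 bases before their RefSeq start site (GRCm38.p6). Tril is of the astrocyte pattern, and Tlr9, Myd88 and Ticam1 are of the microglia pattern. Ticam1 also had the difference between CIE responses described further on. RefSeq windows were at hand for 6 of the 10 genes, and those shown are the 4 with a match to a motif named here. Capitals mark matches to GAGGAA (the PU box bound by the myeloid factor PU.1) or to GAAA, any 2 bases and GAAA again (an interferon regulatory factor site), searched on both strands. The first has a match in 23.3% and the second in 2.98% of 32851 windows of this length.
Tril, chr6:53820826-53821075, minus strand: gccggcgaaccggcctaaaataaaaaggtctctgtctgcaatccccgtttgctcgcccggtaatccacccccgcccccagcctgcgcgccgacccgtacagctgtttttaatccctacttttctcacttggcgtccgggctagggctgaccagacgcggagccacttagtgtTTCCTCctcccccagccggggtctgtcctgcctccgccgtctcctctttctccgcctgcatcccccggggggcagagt
Tlr9, chr9:106222348-106222597, plus strand: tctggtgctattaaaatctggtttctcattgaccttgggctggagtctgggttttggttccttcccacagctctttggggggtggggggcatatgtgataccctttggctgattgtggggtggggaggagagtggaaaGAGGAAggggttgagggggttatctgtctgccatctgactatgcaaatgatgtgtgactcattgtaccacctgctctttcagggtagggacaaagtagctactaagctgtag
Myd88, chr9:119340019-119340268, minus strand: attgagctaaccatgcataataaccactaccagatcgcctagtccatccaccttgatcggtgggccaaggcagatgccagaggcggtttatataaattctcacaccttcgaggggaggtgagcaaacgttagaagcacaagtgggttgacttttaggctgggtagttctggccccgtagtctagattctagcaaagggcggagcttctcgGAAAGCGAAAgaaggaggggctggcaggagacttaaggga
Ticam1, chr17:56276768-56277017, minus strand: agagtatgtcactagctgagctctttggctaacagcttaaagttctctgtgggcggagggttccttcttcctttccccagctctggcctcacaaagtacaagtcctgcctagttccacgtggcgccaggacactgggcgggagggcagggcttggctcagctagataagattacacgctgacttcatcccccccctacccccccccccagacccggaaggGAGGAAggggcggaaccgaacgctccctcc

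Myd88 was the gene with an interferon regulatory factor match, at bases -40 to -31 from its RefSeq start site. Its window lies inside the annotated Myd88 locus given below, not upstream of it. A PU box match stood at -112 to -107 in Tlr9, at -30 to -25 in Ticam1 and, on the opposite strand, at -78 to -73 in Tril, so its presence did not follow the order of the levels. Tlr2 and Tlr3 had no match to either motif in their windows.

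Of the genes, 3 share their locus with another annotated gene. Tril lies on chromosome 6 from 53815468 to 53820830 (mm10) on the minus strand. The noncoding gene Gm16499, on the plus strand from 53818743, overlaps a part of Tril and covers the whole Tril window printed above. Tlr3 (chromosome 8, 45395665 to 45411080) is overlapped by the antisense gene Gm45542, and Myd88 (chromosome 9, 119335934 to 119341411) by Acaa1a on the opposite strand. The Myd88 window printed above lies inside both Myd88 and Acaa1a (119339676 to 119350299). Slc22a14 spans Myd88 on the same strand and had 3 counts over all libraries. Gm16499 and Gm45542 were not among the genes counted. Ambiguous reads have a line of their own in the files, 0.16% to 0.556% of the sum of all lines. Whether strand was used in counting is not given in the sources used here, so the effect of these overlaps on the counts cannot be told.

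Whether CIE changed these genes was asked in each preparation separately, and none of the 10 passed an adjusted p of 0.05 in edgeR. This held for 10 of 10 genes tested in astrocytes, where 5.13% of all genes were called, for 10 of 10 in microglia (3.47%) and for the 9 tested in total homogenate (0.25%). Ly96 was not tested in total homogenate, where it had 2 to 12 counts per library. At an unadjusted p under 0.05 there were 2 genes in astrocytes (Tril and Tlr4), where 21% of all genes had such a p, 1 in microglia (Tlr2, 16.9%) and 3 in total homogenate (Ticam1, Tlr9 and Tlr4, 9.2%). DESeq2 called 1 of the 10 in astrocytes (Tril, beside 7.68% of all genes) and 0 in the other preparations (5.88% in microglia and 1.26% in homogenate). Over the genes on the list the median log2 fold change was 0.21 for astrocytes, -0.08 for microglia and 0.30 for homogenate, beside 0.00, -0.01 and 0.01 for all genes tested. Standard errors ran from 0.0923 (Ticam1) to 0.310 (Tlr2) in astrocytes, from 0.131 to 0.340 for microglia and from 0.110 to 0.309 for homogenate, so the size of change that could be seen differed between genes.

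**Figure D3:**
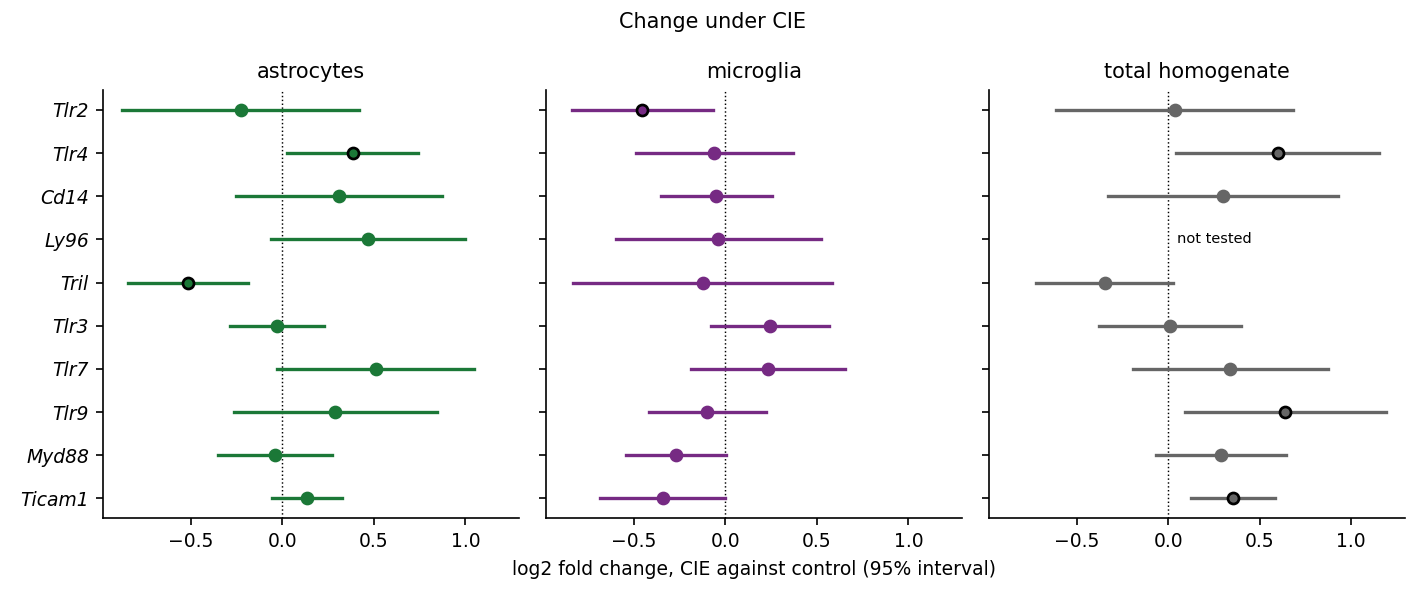
Log2 fold change of each gene, CIE against control, with its 95% interval from edgeR, in astrocytes, microglia and total homogenate. A black rim marks an unadjusted p under 0.05, and no gene passed after adjustment over all genes. Tril in astrocytes (-0.52) and Ticam1 in total homogenate (0.35) have the smallest p values.

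Tril in astrocytes came nearest to the threshold. On the scale of the astrocyte libraries it had 561, 695 and 852 CPM (lowest, median and highest) in control mice and 305, 527 and 668 in CIE mice. All 9 CIE mice lay below the control median, although the groups overlapped between 561 and 668 CPM. The control mean was 689 ± 91.4 CPM (SD, n = 8) and the CIE mean 482 ± 147 (SD, n = 9), which gives a log2 fold change of -0.52 with a standard error of 0.158. The unadjusted p was 0.00386 and the adjusted p 0.0612 in edgeR. With DESeq2, the tool named in the methods of the study, the fold change was the same, -0.52, and the adjusted p was 0.0235. Of the 17 edgeR fits that left out 1 mouse, 14 did not pass, with an adjusted p of up to 0.113 (without mouse 26), and those without CIE mouse 08, 40 or 41 did (0.0280, 0.0362 and 0.0360). Of 8 other settings 6 did not pass, with an adjusted p of up to 0.160.

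The mice carry numbers in 3 ranges, 03 to 08, 19 to 26 and 35 to 41, whose meaning is not given in the sources used here. The 4 CIE mice numbered 19 to 26 had the lowest Tril, 305 to 375 CPM, while the other 5 CIE mice had 527 to 668. The log2 difference was -0.30 within 03 to 08, -0.91 within 19 to 26 and -0.25 within 35 to 41, lower in CIE mice in all 3 ranges. With this range held constant in the fit it was -0.54 (adjusted p = 0.00619 in edgeR). The total homogenate gave a Tril difference of -0.35 (standard error 0.179, adjusted p = 0.593), with 79.4, 93.0 and 125 CPM in control and 32.2, 76.2 and 124 in CIE mice, 7 of 9 of them below the control median. In microglia, where it had 5.26 to 42.0 CPM, the difference was -0.12 (standard error 0.340). Between preparations the Tril response did not pass the test of the difference (adjusted p of at least 0.810 in each of the 3 pairs).

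**Figure D4:**
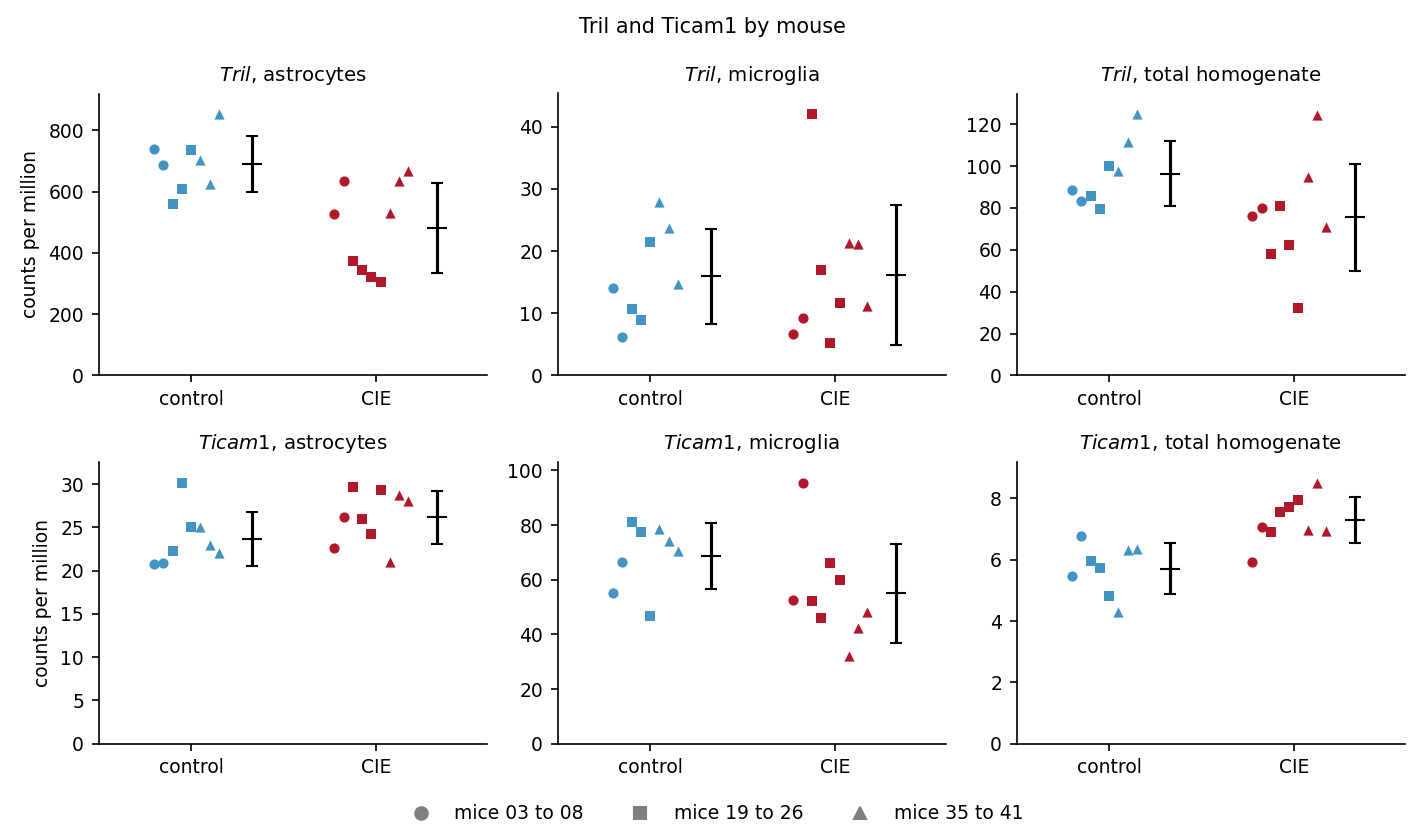
CPM of Tril (upper row) and Ticam1 (lower row) by mouse in astrocytes, microglia and total homogenate, control mice in blue and CIE mice in red, with marker shapes for the range of mouse numbers and bars for the mean and SD. All 9 CIE mice lie below the control median (695) for Tril in astrocytes and above it (5.83) for Ticam1 in total homogenate.

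Over all mice Ticam1, the adaptor of Tlr3 and of the late Tlr4 response, had differences of opposite sign in microglia and total homogenate. In microglia it had 46.8, 72.2 and 81.0 CPM in control and 32.2, 52.0 and 95.5 in CIE mice, with 8 of 9 CIE mice below the control median and mouse 08 above every control mouse. The log2 fold change was -0.34 (standard error 0.164, adjusted p = 0.296 in edgeR). It was -0.47 (adjusted p = 0.0466) without mouse 08, and -0.16 (adjusted p = 0.804) with the neutrophil marker level as a covariate. By range of mouse numbers the microglia difference was 0.23 within 03 to 08, -0.26 within 19 to 26 and -0.87 within 35 to 41. In total homogenate Ticam1 had 4.29, 5.83 and 6.78 CPM in control and 5.91, 7.07 and 8.51 in CIE mice. All 9 CIE mice lay above the control median and the groups overlapped between 5.91 and 6.78 CPM. The log2 fold change was 0.35 (standard error 0.110, adjusted p = 0.240), and in astrocytes it was 0.14 (standard error 0.0923, adjusted p = 0.423). In total homogenate the difference was 0.09, 0.45 and 0.42 within the same ranges of mouse numbers, so within 03 to 08 its sign was that of microglia.

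The difference between the responses was tested directly by an interaction term. The CIE response of Ticam1 in microglia was below that in total homogenate by -0.72 on the log2 scale (standard error 0.185, 95% interval -1.09 to -0.35, adjusted p = 0.0437 in edgeR). Of all 14379 genes, 0.264% were lower in this comparison. No other member of the list was called in any of the 3 comparisons of responses, where 0.529% of all genes were called between microglia and astrocytes and 0.00695% between astrocytes and total homogenate. The adjusted p was 0.0562 without the low-count filter, and leaving out 1 mouse kept the call in 4 of 17 fits (mice 06, 08, 22 and 25), with differences of -0.63 to -0.84 over all 17. Against astrocytes the microglia response of Ticam1 differed by -0.51 (standard error 0.176, adjusted p = 0.225), or -0.63 (adjusted p = 0.0456) without mouse 08.

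Of the 5 receptors on the list, Tlr2 had the largest difference in microglia. It had 156, 306 and 441 CPM in control and 150, 219 and 336 in CIE mice, 8 of 9 of them below the control median, with wide overlap. The log2 fold change was -0.45 (standard error 0.185, unadjusted p = 0.0232, adjusted p = 0.194 in edgeR). It differed by range of mouse numbers, at -0.23 within 03 to 08, 0.18 within 19 to 26 and -1.28 within 35 to 41. Myd88 in microglia had 111, 137 and 154 CPM in control and 74.9, 113 and 150 in CIE mice (log2 fold change -0.27, standard error 0.131, adjusted p = 0.306). Tlr9 and Tlr4 differed there by -0.10 and -0.06, and Tlr7 and Tlr3 by 0.23 and 0.24, with adjusted p of 0.478 or more. Cd14 had 197, 233 and 298 CPM in control and 167, 233 and 355 in CIE microglia, and differed by -0.05 (standard error 0.145).

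Other values moved with CIE in the microglia preparation. The summed level of the 12 microglia markers was 27177 to 40837 CPM in control and 19433 to 27564 in CIE mice, with 2 markers called lower and a median log2 fold change of -0.31. Of 9 neutrophil markers tested 8 were called higher, with a median log2 fold change of 2.89. The summed level of 10 such markers was 592 to 1195 CPM (median 969) in control and 786 to 6921 (median 1047) in CIE mice. The highest value came from CIE mouse 41, and the next was 2265 CPM in mouse 26. With the neutrophil marker level as a covariate no member of the list passed, beside 56 of all 10761 genes (373 without a covariate). In that edgeR fit Tlr2 was at -0.43 (adjusted p = 0.484) and Tlr7 at 0.53 (adjusted p = 0.335). The part of these cells in the microglia values was not tested otherwise.

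In astrocytes the receptors typical of microglia had mostly higher means in CIE mice but did not pass the test. Tlr4 had 6.98, 17.2 and 21.2 CPM in control and 14.1, 19.6 and 28.5 in CIE mice (log2 fold change 0.38, standard error 0.173, adjusted p = 0.204 in edgeR), with 7 of 9 CIE mice above the control median. Tlr7 had 22.9, 55.9 and 83.9 CPM in control and 41.8, 74.3 and 118 in CIE mice (0.51, standard error 0.259, adjusted p = 0.267). Ly96 differed by 0.47 (standard error 0.255), Cd14 by 0.31 (standard error 0.270), Tlr9 by 0.29 (standard error 0.266) and Tlr2 by -0.23 (standard error 0.310). Myd88 and Tlr3 were at -0.04 and -0.03. For Tlr4, Tlr7, Ly96, Cd14, Tlr9 and Tlr2 the low end of the control values came from mice 03 and 05. Their astrocyte libraries also had the lowest summed microglia markers, 2054 and 1502 CPM against 3515 to 6250 in the other control mice. Among CIE mice, 06 and 08 likewise had the lowest sums, 2967 and 2518 CPM against 3593 to 5891 in the others. Mice 06 and 08 also had the lowest Tlr4, Tlr7 and Tlr9 of the CIE astrocytes.

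These astrocyte values depended on what was held constant. With the microglia marker level as a covariate, Tlr4 (0.40, adjusted p = 0.0122) and Tlr9 (0.39, adjusted p = 0.0407) passed the test, beside 8.32% of all genes. With the mouse number range held constant Tlr7 passed (0.47, adjusted p = 0.0220), as did 8.77% of all genes. With the level of border macrophage and monocyte markers as a covariate none passed, beside 176 of all 12878 genes (661 without a covariate). In that fit Tlr7 was at 0.02, Tlr4 at 0.05 and Tlr9 at -0.23. Of 8 such markers tested in astrocytes 2 were called higher under CIE, with a summed level over 11 markers of 52.1 to 210 CPM in control and 79.6 to 305 in CIE mice.

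In total homogenate the genes typical of microglia were all measured at a few CPM. Tlr4 had 1.39, 2.71 and 3.88 CPM in control and 1.28, 4.37 and 6.48 in CIE mice (log2 fold change 0.60, standard error 0.265, unadjusted p = 0.0364, adjusted p = 0.504 in edgeR). Tlr9 had 2.91, 3.43 and 5.35 CPM in control and 2.72, 4.82 and 10.8 in CIE mice (0.64, standard error 0.263, adjusted p = 0.438). The lowest values of the control and CIE mice were alike for both genes, and 7 (Tlr4) and 6 (Tlr9) of 9 CIE mice lay above the control median. Tlr7 (0.34), Cd14 (0.30) and Myd88 (0.29) had differences of less than 2 standard errors, and Tlr2 (0.04) and Tlr3 (0.01) were near 0. The summed microglia markers had a median of 816 CPM in control and 827 in CIE homogenate. The 10 neutrophil markers summed to 13.4 to 40.4 CPM (median 31.7) in control and 13.1 to 748 (median 38.1) in CIE mice. The 11 border macrophage and monocyte markers had medians of 36.97 and 59.1 CPM. Of each of these lists 6 genes were tested in homogenate and 0 called, with median log2 fold changes of 3.18 and 0.90, and their part in the values was not tested.

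The rest of the pathway was followed in 54 further genes, of which 50 were tested in each of the cell preparations and 47 in total homogenate. Irf7, the interferon regulatory factor that acts below Tlr7 and Tlr9 and is itself induced by interferon, was called higher in all 3 preparations. It had 5.65 to 21.3 CPM in control and 14.5 to 42.3 in CIE astrocytes. The same ranges were 8.77 to 32.0 and 20.3 to 63.9 CPM for microglia, and 3.17 to 5.95 and 4.68 to 11.8 for homogenate, with all 9 CIE mice above the control median each time (adjusted p = 0.00914, 0.00530 and 0.0216 in edgeR). In total homogenate its call was lost without mouse 03, 20, 22, 35 or 36, with adjusted p of 0.0501 to 0.0601, and was at 1.00 (adjusted p = 0.221) without the 4 mice numbered under 10. In astrocytes Tab1, a partner of the kinase TAK1, was up-regulated from 35.1 to 41.3 CPM in control to 42.2 to 52.9 in CIE mice without overlap (log2 fold change 0.34, standard error 0.0584, adjusted p = 0.00448). The kinase Irak2, which acts below MYD88, was down-regulated from 120 to 161 CPM to 78.8 to 148 (-0.41, standard error 0.106, adjusted p = 0.0289). This call was lost without mouse 22, 25, 26 or 36 (adjusted p of 0.0540 to 0.0634). It was also lost with the border macrophage and monocyte markers as a covariate (-0.33, adjusted p = 0.154). In microglia Irf8, a transcription factor of the macrophage lineage, was down-regulated from 524 to 649 CPM to 336 to 505 without overlap (-0.43, standard error 0.0919, adjusted p = 0.0144), and with the neutrophil markers as a covariate it was at -0.39 (adjusted p = 0.161).

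The calls therefore came to 3 of 50 genes for astrocytes, 2 of 50 for microglia and 1 of 47 for homogenate, beside 5.13%, 3.47% and 0.25% of all genes. The median log2 fold change of these pathway genes was 0.05, -0.11 and 0.06. Ticam2 in microglia was below the control median in all 9 CIE mice (40.5 ± 5.84 against 31.1 ± 5.52 CPM, SD, n = 8 and 9) and its log2 fold change was -0.36 (standard error 0.120, adjusted p = 0.107). Tlr13 (astrocytes 0.43, microglia 0.13, homogenate 0.56), Tirap (0.14, -0.01 and 0.33) and Unc93b1, the chaperone that carries the nucleic acid receptors to endosomes (0.24, -0.16 and 0.23), did not pass in any preparation. Tlr1 and Tlr6 were tested in astrocytes (0.16 and 0.10) and microglia (-0.11 and 0.02) only, and Ticam2 was at 0.13 in astrocytes. Irf7 kept its call in microglia in 6 of 7 alternative settings, and was at 0.96 (adjusted p = 0.118) with the neutrophil markers as a covariate.

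Within a preparation some of the genes varied together from mouse to mouse. The values below are Pearson correlations of log2 CPM over 17 libraries after removal of the treatment means, given as a description. The libraries share their depth and their mixture of cells. In microglia Myd88 and Ticam1 (r = 0.84), Tlr2 and Myd88 (0.79), Cd14 and Myd88 (0.76) and Tlr2 and Ticam1 (0.74) varied together. A second set was Tlr4 and Tlr9 (0.90), Tlr3 and Tlr4 (0.84), Tlr7 and Tlr9 (0.74) and Tlr3 and Tlr9 (0.73). The remaining pairs were lower, at 0.58 (Tlr2 and Cd14) and 0.57 (Cd14 and Ticam1) in the first set. In the second they were 0.60 for both Tlr4 and Tlr7 and Tlr3 and Tlr7. The 16 pairs across these sets, which were drawn from the values themselves, had r from -0.61 (Cd14 and Tlr4) to 0.33 (Ticam1 and Tlr7). Of them 11 were negative, and 4 of the 5 positive ones held Tlr7. In astrocytes Tril and Tlr3 had r = 0.88, whereas Tril had -0.59 with Tlr7 and -0.54 with Tlr2.

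The genes most like each of them over all genes tested were as follows. For Tril in astrocytes they were Lix1 (r = 0.98), Cspg5 (0.97) and Fjx1 (0.96), and for Tlr3 in astrocytes Elovl2 (0.96), Hapln1 (0.95) and S1pr1 (0.94). In microglia they were Tgif1, Pfkfb3 and Nabp1 for Tlr2 (0.91 to 0.94), Coq10b, Csrnp1 and Sqstm1 for Myd88 (0.92 to 0.93), and G3bp1, Gtf2b and Rap1b for Ticam1 (0.89 to 0.91). Cd14 was most like Pim1, Plaur and Tnfsf12 (0.84 to 0.88). The second set gave Adam17, Nckap1l and Tnks2 for Tlr4 (0.95 to 0.96), Cblb, Nckap1l and Rps6ka3 for Tlr9 (0.92 to 0.94) and Il6ra, Abca9 and Havcr2 for Tlr7 (0.92 to 0.95). Nckap1l was shared by Tlr4 and Tlr9. Ly96, with 2 to 36 counts per microglia library, had its highest values with Ogt, Peak1 and Capns2 (0.80).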

How the data were processed

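Per the labels and the methods of the study, libraries of poly(A) RNA were demultiplexed with bcl2fastq 2.17, trimmed with Cutadapt 1.8, aligned to mm10 with STAR 2.5.0a, cleared of duplicates with Picard 1.141 and counted with HTSeq 0.6.1p1. The files the authors deposited hold raw whole-number counts per gene symbol, with no normalization. The annotation release and the strand setting of the counting are not given in the sources used here. Lines that name no gene (reads in no feature, a median of 23.3% of the sum of all lines, and reads not aligned uniquely, 12.6%) were left out of library sizes. Removal of duplicates lowers the counts of highly expressed genes most.

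CIE was compared with control within each preparation by the quasi-likelihood test of edgeR 4.0.16 (R 4.3.3), after filterByExpr and TMM scaling, and p was adjusted over all genes tested by the Benjamini-Hochberg method (threshold 0.05). Preparations were compared in 1 fit of the 24 control libraries, and responses by interaction terms in 1 fit of all 51. The standard error is the log2 difference over the square root of F. CPM values use TMM sizes within a preparation for CIE against control, and over all 51 libraries for levels between preparations and marker sums. Exon lengths and positions are from GENCODE M21 (GRCm38), and promoter windows from RefSeq (GRCm38.p6). Tables used pandas 2.3.3 and plots matplotlib 3.10.9. The edgeR step was tested on simulated counts.

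The alternatives were DESeq2 1.42.0, RLE sizes, other low-count filters, the range of mouse numbers or a marker level as a covariate, leaving out mice, and the mouse number as a block. The 3 preparations with 1 number come from 1 mouse by design. Their deviations from the group means had median correlations of 0.112 (astrocytes and homogenate), 0.0394 (microglia and homogenate) and 0.149 (astrocytes and microglia) over the 17 mice. Named were all 10 members, up to 6 called pathway genes with the smallest adjusted p per preparation, 8 further pathway genes fixed by name, and the 3 genes most correlated with each member. The members and gene lists were chosen with earlier results of these data known. No protein sequences were used here.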

Additional observations from a re-analysis of the deposited data

Results flagged for a closer look

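Outliers were looked for in 60 groups of 8 or 9 mice (10 genes, 3 preparations, 2 treatments) by the gap between the extreme mouse and its neighbor, and 4 were found, where chance alone gives about 3. Tlr3 in total homogenate had 31.5 CPM in CIE mouse 40, and the next CIE mouse had 19.8. Tlr9 in total homogenate had 5.35 CPM in control mouse 03 against 3.95 in the next. Tril in microglia had 42.0 CPM in CIE mouse 23, next to 21.3. Ticam1 in astrocytes had 30.2 CPM in control mouse 20, next to 25.1.

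The response of Ticam1 to CIE differed between microglia and total homogenate by -0.72 on the log2 scale in a test of the difference itself (edgeR interaction term, adjusted p = 0.0437). The call was kept in 4 of 17 fits that left out 1 mouse (adjusted p of up to 0.134), and it was lost without the low-count filter.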

How the results depend on the processing

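The differences between preparations in control mice kept their direction and call for all 10 genes in all 3 comparisons under DESeq2, RLE sizes, no low-count filter, the replicate block and without each control mouse in turn (RLE sizes shifted the microglia minus homogenate values of the genes by a median of -0.11). Levels of the genes moved by less than 1 SD in 30 of 30 cases with RLE sizes and 29 of 30 with plain library totals, where Myd88 in control microglia was at 134 CPM. In CIE against control, members of the list passed in astrocytes with DESeq2 (1 lower), with the mouse number range held constant (1 higher, 1 lower) and with the microglia markers (2 higher), as named in the report. Without 1 mouse, 0 to 1 passed in astrocytes and microglia, each lower, and 0 in total homogenate. Over all genes the number called in astrocytes was 661, and 1157 with DESeq2, 1129 with the range covariate, 1132 without the mice numbered under 10, 1071 with the microglia marker covariate, 176 with the border macrophage and monocyte marker covariate and 354 to 1001 without 1 mouse. In microglia it was 373, and 767 with DESeq2, 775 with the range covariate, 727 without the mice numbered under 10, 56 with the neutrophil marker covariate and 182 to 684 without 1 mouse. In total homogenate it was 35, and 204, 81 and 7 in the first 3 of those settings and 15 to 71 without 1 mouse. The cause of these shifts was not tested. Responses that differed between microglia and total homogenate numbered 119, and 248 with DESeq2 and 49 to 188 without 1 mouse, and the Ticam1 call was lost with no low-count filter (0 members). Between microglia and astrocytes there were 76, and 182 with DESeq2, 44 with no filter and 23 to 124 without 1 mouse, with 0 to 1 member. Between astrocytes and total homogenate there was 1, and 5 with DESeq2, 0 with RLE sizes and 0 to 2 without 1 mouse, with 0 members. With the mouse number as a replicate block the Ticam1 difference was -0.73 (adjusted p = 0.0354), and the block changed no call of any member. Without 1 control mouse the counts between preparations were 10466 to 10796, 11283 to 11508 and 9413 to 9729 genes, with the same numbers of members. Ly96 rested on 1 to 36 counts per library.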
